A study of Mus musculus with 2 samples.

Results

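The genes described here are the chains of MHC class II, their assembly factors and their transactivator, as 7 members chosen by symbol among the 27998 gene rows of the count tables: H2-Aa, H2-Ab1, H2-Eb1, Cd74, H2-DMa, H2-DMb1 and Ciita. Each symbol had 1 row in both tables, so all 7 were measured. The cells were MerTk+ CD64+ tumor mononuclear phagocytes (TMPs), sorted from tumors of B16, a mouse melanoma line, that had grown in C57Bl/6 mice. One group, Fcmr+/+, carried the intact gene for the IgM Fc receptor, and the other, Fcmr-/-, lacked it in the whole animal. Each group was 1 library of single cells, the number of mice behind it is not given in the sources used here, and neither group received a treatment. Which cell type the deletion acts through therefore cannot be told apart in these data.

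MHC class II presents peptides from ingested material to CD4 T cells. An α chain and a β chain pair in the endoplasmic reticulum around the invariant chain Cd74, which blocks the groove and guides the complex to endosomes, where H2-DM, the pair of H2-DMa and H2-DMb1, exchanges the remaining fragment of Cd74 for antigenic peptide. Ciita is the coactivator that all of these genes share: it binds no DNA itself but docks on factors held at the X and Y boxes of their promoters, and in macrophages it is induced by interferon-γ. C57Bl/6 mice make no I-E α chain, so H2-Eb1 RNA in this strain does not stand for surface I-E.

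H2-DMa, H2-DMb1, H2-Ab1, H2-Aa and H2-Eb1 lie together on chromosome 17, within chr17:34119541-34316674 of GRCm38, in the MHC region. Ciita is at chr16:10480059-10528418. The stretches printed next are from the promoters of 3 members and of the paralog H2-DMb2, taken from RefSeq sequences of GRCm38.p6, and they are shown because letters of the X and Y boxes, at which Ciita is known to dock, were searched in them. Capitals mark the Y box core GATTGG and the X box core AACNGATG, where N is any base, both searched on both strands in the 250 bases before each start.
H2-Aa: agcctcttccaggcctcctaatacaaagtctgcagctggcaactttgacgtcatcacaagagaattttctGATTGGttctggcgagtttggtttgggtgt
H2-Eb1: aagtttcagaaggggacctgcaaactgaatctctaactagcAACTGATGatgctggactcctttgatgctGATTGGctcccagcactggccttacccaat
H2-DMb1: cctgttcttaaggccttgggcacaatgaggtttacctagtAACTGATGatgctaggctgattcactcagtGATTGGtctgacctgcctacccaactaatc
H2-DMb2: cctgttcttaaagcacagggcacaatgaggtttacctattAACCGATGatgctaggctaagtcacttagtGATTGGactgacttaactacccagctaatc

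These 100-base stretches are chr17:34287843-34287942 on the minus strand for H2-Aa, and chr17:34305737-34305836, chr17:34153059-34153158 and chr17:34145088-34145187 on the plus strand for H2-Eb1, H2-DMb1 and H2-DMb2. Promoter entries matched 4 of the 7 members by symbol, and each of those 4 held a Y box core, H2-DMa at 1 of its starts and without an X box core. A Y box core was present in 14.6% of all 32851 promoters and an X box core in 1.98%. In H2-Eb1 and H2-DMb1 the X core preceded the Y core with 21 and 22 bases between them. An X core before a Y core on the same strand, with 10 to 30 bases between (a spacing chosen after the members' promoters were seen), was found in 6 of 27025 genes, of which H2-Eb1, H2-DMb1, H2-DMb2 and H2-Eb2 are class II genes. The X core letters were not in the H2-Aa window. A match of letters is a description of the sequence and not a measured site.

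The Fcmr+/+ library had 6352 cells and 128408544 UMIs after filtering, and the Fcmr-/- library 7999 cells and 124630621 UMIs, with medians of 17974 and 12911 UMIs per cell. Among barcodes, 73 were in both libraries. All 9 macrophage markers were detected in every cluster of both libraries, with summed levels of 16452 and 14552 CPM (counts scaled to a library of 1000000 UMIs). Fcmr itself gave 7 and 6 UMIs, too few to check the genotype. The summed levels were 0.864 and 14.5 CPM for the T and NK cell list of 6 genes, and 21.8 and 32.2 CPM for the dendritic cell list of 10 genes. Of these genes, Ncr1 alone was at 0, in Fcmr+/+. The melanoma list of 5 genes had 40.2 and 63.6 CPM, with a median log2 ratio of 0.56 over the 4 genes at 5 CPM, all 4 of them higher in Fcmr-/-. Among these 4, Mlana had 5 CPM only in Fcmr-/- (4.72 and 6.67 CPM), which fixes its direction. The neutrophil list had 15.4 and 23.5 CPM and the B cell list 12.4 and 10.4 CPM. The part of these cell types in the class II values was not tested except where given below. No test between genotypes could be made, because a genotype was a single library. Intervals are exact at 95%, and they cover counting error only.

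All 7 class II genes were higher in Fcmr-/- than in Fcmr+/+ TMPs when the UMIs of all cells were summed. H2-Aa, the α chain of I-A, had 976 CPM in Fcmr+/+ and 1399 in Fcmr-/- cells, which is 1.43-fold (interval 1.42 to 1.44). Its partner H2-Ab1, the I-A β chain, had 770.2 and 1119 CPM, 1.45-fold (1.44 to 1.46). H2-Eb1, the I-E β chain, had 646 and 944 CPM, 1.46-fold (1.45 to 1.47). The 3 chains thus stood in nearly the same ratio between the libraries.

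The invariant chain Cd74 had 2294 CPM in Fcmr+/+ and 3309 in Fcmr-/- cells, 1.44-fold (1.44 to 1.45). H2-DMa had 119 and 189 CPM, 1.58-fold (1.55 to 1.62), and H2-DMb1 had 111 and 160.0 CPM, 1.44-fold (1.41 to 1.47). H2-DMb1 has a near copy next to it, H2-DMb2: 27.2% of the 50-base windows of its transcript were also in H2-DMb2, so reads from these stretches could be assigned to either or to none. H2-DMb2 itself had 6.32 and 6.28 CPM, a ratio close to 1.

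Ciita was sparse, and its ratio, the highest of the 7 by fold, depended on the pseudocount (the CPM added before logs were taken). It gave 302 UMIs (2.35 CPM) in Fcmr+/+ and 667 UMIs (5.35 CPM) in Fcmr-/- cells, 2.28-fold (1.98 to 2.62), and it reached the minimum of 5 CPM for counting a gene only in the Fcmr-/- library. On the scale of log2(CPM + 1), the members' ratios of Fcmr-/- to Fcmr+/+ ran from 0.52 to 0.92 with a median of 0.54. With a pseudocount of 10 CPM in place of 1, Ciita was at 0.31, the lowest of the 7, and 5 of the 7 were at 0.5 or more. The median of 0.54 stood against a median of 0.00 over the 8701 genes with at least 5 CPM. The 6 members with 5 CPM in both libraries and Ciita were at a log2 ratio of at least 0.5, as were 3.16% of all these genes.

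The size of this difference varied with the number of UMIs in the compared cells. Among cells with 5000 to 10000 UMIs the summed members had 9178 CPM in 1189 Fcmr+/+ cells and 7945 CPM in 2661 Fcmr-/- cells, a log2 ratio of -0.21, which reverses the direction of all members but Ciita. Among cells with 10000 to 20000 UMIs the sums were 6395 and 7309 CPM (log2 ratio 0.19). Among cells with 20000 to 40000 UMIs they were 3531 and 6706 CPM (log2 ratio 0.93). With the cells of each library ordered by depth and divided into 4 equal parts, the Fcmr+/+ sum was 9045 CPM in the shallowest, then 6223, 4294 and 3759 CPM. The Fcmr-/- sum was 7536, 8392, 6920 and 6666 CPM, so it was not highest in the shallowest cells. Ciita was higher in Fcmr-/- in all 3 windows, with log2 ratios of 0.52, 0.56 and 1.30.

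The windows held different kinds of cells in the 2 libraries. Of the Fcmr+/+ cells with 20000 to 40000 UMIs, 29.4% belonged to cluster 4, a class II-low cluster led by Tfrc and Gpr34, against 7.01% of the Fcmr-/- cells in that window. Clusters 3 and 9, described below with higher levels, held 21.5% and 21.0% of the Fcmr-/- cells there, and 1.13% and 0.736% of the Fcmr+/+ cells. When each cell was thinned to 5000 UMIs, so that every cell counted alike, all 7 members remained higher in Fcmr-/-, with log2 ratios of 0.31 to 0.74 and a median of 0.35. Only Ciita was then at 0.5 or more, as were 3.35% of 8688 genes. In thinned cells Ciita averaged 0.0148 UMIs in Fcmr+/+ and 0.0280 in Fcmr-/-. It reached 5 CPM only in Fcmr-/-, which partly fixes its direction in this count.

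**Figure D1:**
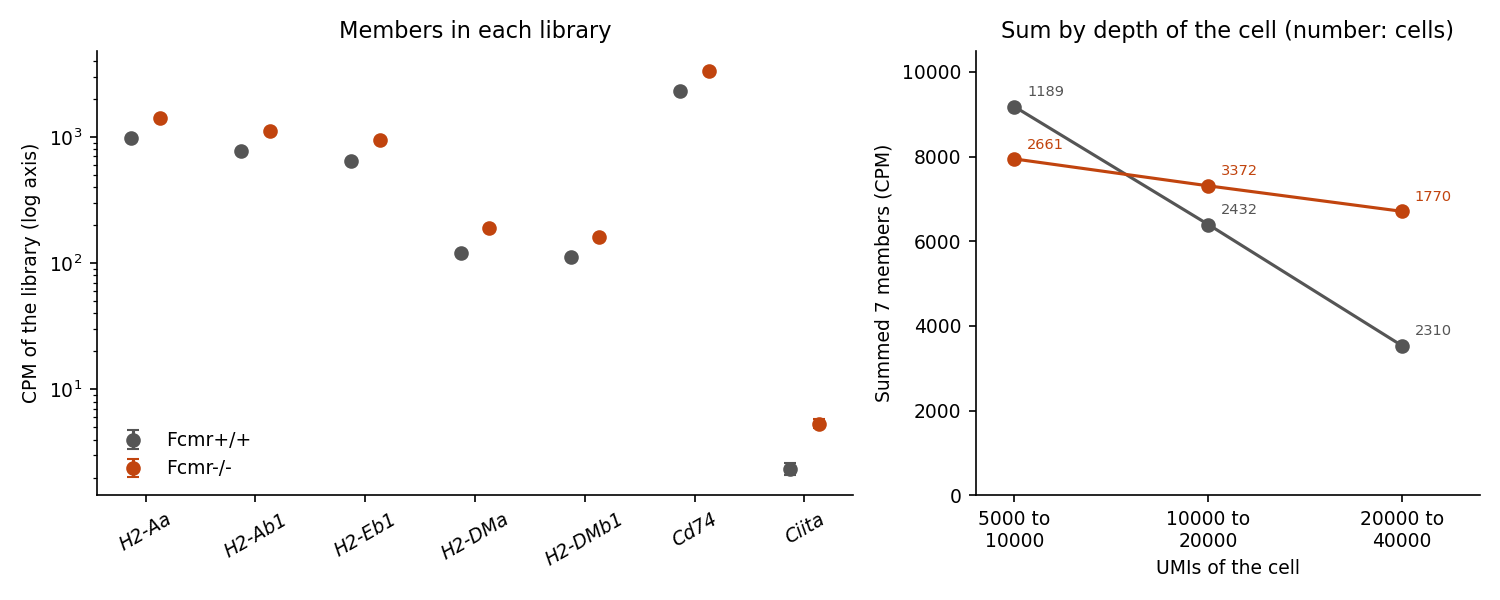
Left, CPM of each member in the Fcmr+/+ (grey) and Fcmr-/- (orange) library on a log axis, with exact 95% Poisson intervals that are mostly smaller than the points; every member sits higher in Fcmr-/-. Right, CPM of the 7 members summed, in cells grouped by their UMIs, with the number of cells beside each point; the Fcmr+/+ line starts above the Fcmr-/- line at 9178 CPM and ends below it at 3531 CPM.

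At equal depth, a class II UMI was found in a larger share of Fcmr-/- cells, with no measure of the share that free RNA gives in either library. In cells thinned to 5000 UMIs, at least 1 UMI of Cd74 was found in 68.9% (67.8 to 70.1%) of Fcmr+/+ and 81.6% (80.8 to 82.5%) of Fcmr-/- cells. For H2-Aa the shares were 51.5% and 67.2%, for H2-Ab1 54.6% and 69.8%, and for H2-Eb1 42.4% and 58.9%. The shares lay closer together for H2-DM, at 35.4% and 45.5% for H2-DMa and 31.8% and 38.8% for H2-DMb1. Ciita was seen in 1.31% (1.04 to 1.62%) and 2.53% (2.19 to 2.89%) of cells.

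Without thinning, the shares were 87.1% and 91.2% for Cd74, 72.3% and 79.7% for H2-Aa, 63.2% and 61.7% for H2-DMb1, and 3.56% and 6.31% for Ciita, so for H2-DMb1 the order of the libraries turned with their depth. The UMIs per cell with a UMI differed little: in thinned cells they averaged 19.6 and 21.0 for Cd74, 11.4 and 10.7 for H2-Aa, and 8.54 and 8.53 for H2-Ab1. For these chains the libraries therefore differed more in the share of cells with a UMI than in the mean count within such cells. That mean is weighted by the cells with the most UMIs and does not describe the typical cell. Over all thinned cells the median for Cd74 was 2 UMIs in Fcmr+/+ and 7 in Fcmr-/-. For H2-Aa and H2-Ab1 it was 1 and 2 each.

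The distribution over cells differed in its lower and middle range more than at its top. Summing H2-Aa, H2-Ab1, H2-Eb1 and Cd74 in each thinned cell, 17.7% of Fcmr+/+ cells and 7.78% of Fcmr-/- cells had no UMI. The median was 4 UMIs in Fcmr+/+ and 12 in Fcmr-/-, the 75th percentile was 26 and 47, and the 90th was 88 and 103. At the top the order reversed, and the cell with the most had 501 UMIs in Fcmr+/+ and 445 in Fcmr-/-. Class II RNA was accordingly concentrated in fewer Fcmr+/+ cells: the top 10% of cells held 60.7% of these UMIs in Fcmr+/+ and 47.2% in Fcmr-/-, and the lower 50% of cells held 1.90% and 4.60%.

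**Figure D2:**
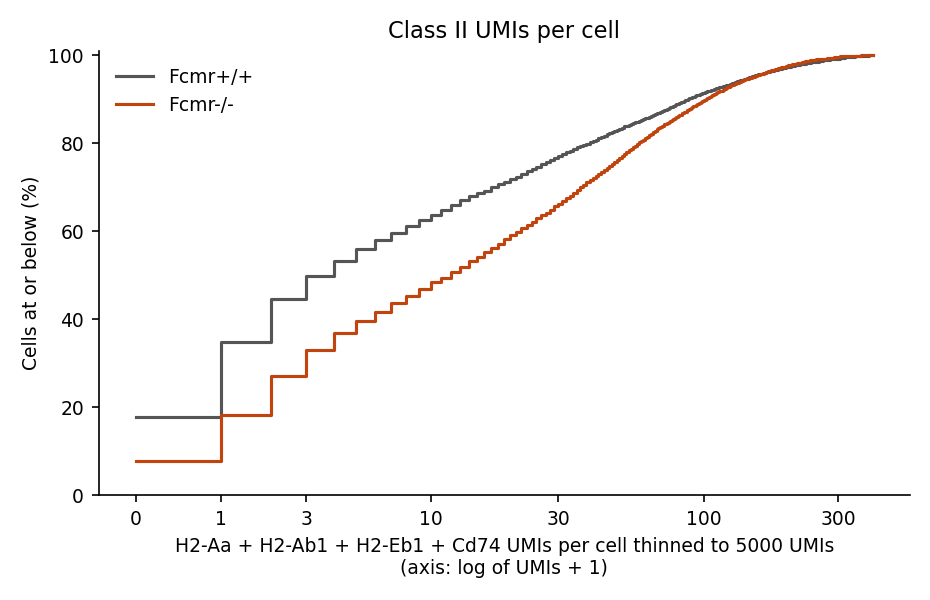
Share of cells (vertical axis, %) at or below a given number of UMIs of H2-Aa, H2-Ab1, H2-Eb1 and Cd74 summed (horizontal axis, log of UMIs + 1), in cells thinned to 5000 UMIs. The Fcmr-/- curve (orange) lies below the Fcmr+/+ curve (grey) from 0 UMIs, where the shares are 7.78% and 17.7%, and the curves meet above 100 UMIs.

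To place the members in macrophage states, all cells were clustered together without the class II genes, which gave 11 clusters of 660 to 2088 cells. Levels differed far more between clusters than between genotypes: the 7 members summed spanned 15.6-fold across clusters in Fcmr+/+ and 19.0-fold in Fcmr-/-. The highest sum in both libraries was in cluster 1, led by Ccl17, Cd209a and Il1r2, with 14886 CPM in 1282 Fcmr+/+ cells and 17273 CPM in 806 Fcmr-/- cells. Cluster 3, led by the Ly6 genes Ly6i, Ly6c2 and Ly6a, came second with 13025 and 10982 CPM. Cluster 10, led by the interferon-induced genes Rsad2, Ifit1bl1 and Cmpk2, had 6942 and 8072 CPM.

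The lowest levels were in cells led by genes of other programs. Cluster 11, led by Adm, Rragd and Cdk18, had 952 CPM in Fcmr+/+ and 911 in Fcmr-/-. Cluster 7, led by Mfge8 and Plpp3, had 1334 and 1122 CPM, and cluster 4 had 1268 and 1284 CPM. Between these ends lay clusters 8 (Amica1, Zmynd15; 5224 and 6459 CPM), 2 (Csf3, Cxcl3; 3955 and 3230 CPM) and 6 (hemoglobin genes; 2912 and 3193 CPM). Even in cluster 11, thinned cells with a Cd74 UMI made up 45.3% and 48.1%. No cell type that should lack class II was sorted, so the part of this share that is free RNA could not be measured.

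**Figure D3:**
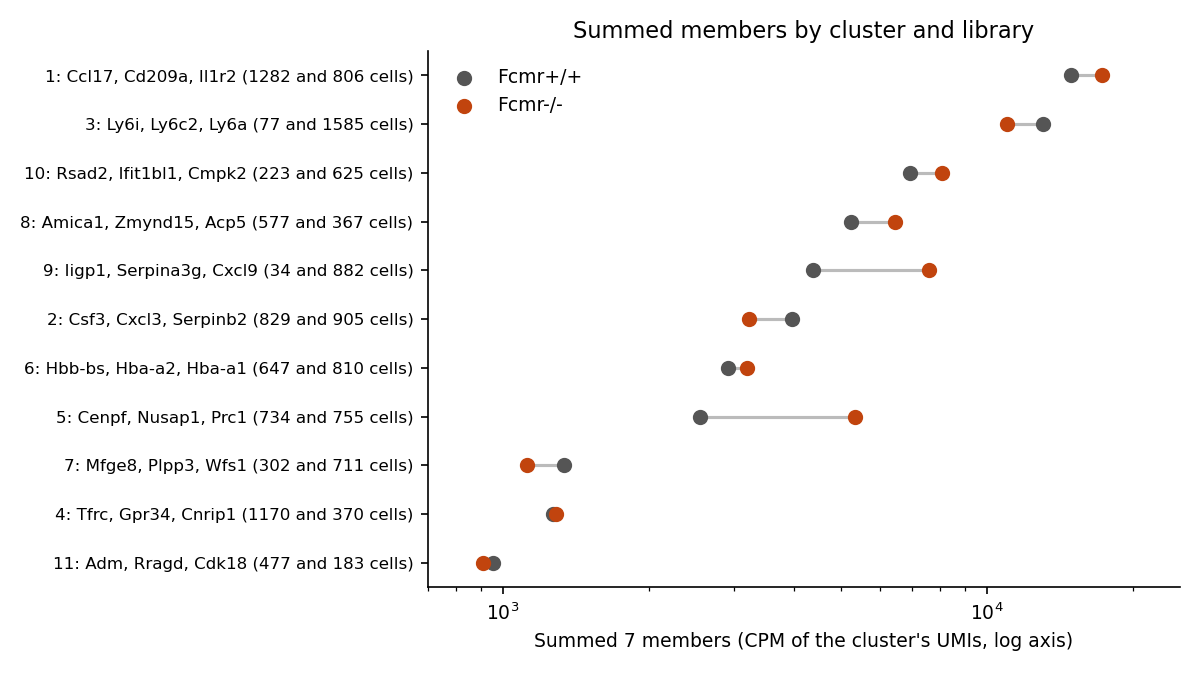
Summed CPM of the 7 members (horizontal axis, log) in each of the 11 clusters, ordered by their Fcmr+/+ level, with 3 leading genes and the numbers of Fcmr+/+ and Fcmr-/- cells at left. Grey points are Fcmr+/+ and orange points Fcmr-/-; the widest gaps are in clusters 5 and 9, and the libraries are close in clusters 4 and 11.

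Within clusters the difference between genotypes was not uniform. The sum was higher in Fcmr-/- in 7 of 11 clusters, with log2 ratios between -0.29 and 1.06. The interval of the fold lay above 1 in 6 clusters and below 1 in 4, and in cluster 4 (0.989 to 1.037) it held 1. All 7 members were higher in Fcmr-/- in clusters 1, 5, 8, 9 and 10, and all 7 were lower in cluster 3. The share of all genes higher or lower was not counted by cluster, so these directions are not read as particular to the members. For Ciita these directions rest on few Fcmr+/+ UMIs, among them 7 in cluster 9 and 14 in cluster 3. The difference in cluster 1 was small, at a log2 ratio of 0.21 in the sum, and within windows of depth it was 0.11, 0.01 and 0.18. The dendritic cell list had 55.4 and 108 CPM in this cluster, and the T and NK cell list 4.29 and 27.2 CPM, and their part in its ratio was not tested. In cluster 3, with 77 Fcmr+/+ and 1585 Fcmr-/- cells, the log2 ratio was -0.25, and from the shallowest to the deepest window -0.50, -0.75 and -0.19. In cluster 10 the windows gave 0.30, 0.31 and 0.17. In cluster 6 they gave 0.04, 0.22 and 0.26. The direction turned with depth in cluster 8, at -0.19, 0.38 and 0.04, and in cluster 4, at -0.02, 0.50 and 0.13. Of the clusters with a lower sum in Fcmr-/-, cluster 2 had -0.92, -0.38 and 0.10, and cluster 7 had -1.33, -0.01 and 0.53. Cluster 11, also lower as a whole, had 0.03, 0.58 and 0.25. Cells of 1 library share that library, so the spread between mice is not measured in any of these ratios.

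The widest difference was in cluster 5, the cycling cells led by Cenpf, Nusap1 and Prc1, where the sum was 2556 CPM in 734 Fcmr+/+ cells and 5329 CPM in 755 Fcmr-/- cells, 2.09-fold (2.06 to 2.11). The 6 members other than Ciita had 5 CPM in both libraries there and a log2 ratio of at least 0.5, as did 3.51% of 8944 genes, and Ciita reached 5 CPM only in Fcmr-/-. H2-Aa had 494 CPM in Fcmr+/+ and 1078 CPM in Fcmr-/-, and Cd74 had 1193 and 2424 CPM. H2-Eb1 was 1.17 higher on the log2 scale, H2-DMa 1.05 and H2-DMb1 0.91. Ciita had 23 UMIs (1.04 CPM) in Fcmr+/+ and 96 UMIs (5.02 CPM) in Fcmr-/-. At 5000 to 10000, 10000 to 20000 and 20000 to 40000 UMIs per cell, the log2 ratio of the sum in cluster 5 was 0.76, 0.56 and 1.41.

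Other gene lists also differed between the libraries in the cycling cells. The interferon-γ list (11 genes, among them Cxcl9 and the GTPase genes Iigp1 and Gbp2) had a summed 60.0 CPM in Fcmr+/+ and 639.7 CPM in Fcmr-/- cells of cluster 5, with 2 and 0 of its genes at 0. The T and NK cell list had 0.0454 and 59.5 CPM, with 5 and 1 of its 6 genes at 0. Without the cells that had a UMI of that list, the log2 ratio of the class II sum was 1.07, against 1.06 with them. The dendritic cell list had 21.6 and 38.9 CPM, and without cells holding at least 2 UMIs of it the log2 ratio was 1.09. The monocyte list of 7 genes had 122 and 230.3 CPM, and its part in the result was not tested.

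Cluster 9, led by Iigp1, Serpina3g and Cxcl9, held 34 Fcmr+/+ and 882 Fcmr-/- cells. Its summed members had 4362 CPM in the former and 7597 CPM in the latter, 1.74-fold (1.68 to 1.80). That interval does not cover the spread between the 34 cells. From the shallowest to the deepest window the log2 ratio of the sum fell from 6.23 to 1.35 and 0.46. These windows held 2, 12 and 17 Fcmr+/+ cells. H2-Eb1, H2-Ab1, H2-Aa and Cd74 had log2 ratios of 1.15, 1.05, 0.97 and 0.67, while the H2-DM genes had 0.34 each and Ciita, with 8.47 and 8.53 CPM, 0.01. Thus 4 of 7 members were at 0.5 or more in this cluster, where 11.7% of 8821 genes were; the Fcmr+/+ value rests on 34 cells. The dendritic cell list had 18.2 and 37.8 CPM in cluster 9, and without cells holding at least 2 of its UMIs the log2 ratio of the sum was 0.99, against 0.80 with them. There the monocyte list had 121 and 226 CPM and the T and NK cell list 0 and 6.64 CPM, and without cells with a UMI of the latter the log2 ratio was 0.80. The chains thus had the larger ratios there, and the Fcmr+/+ level of Ciita is a count of 7 UMIs.

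**Figure D4:**
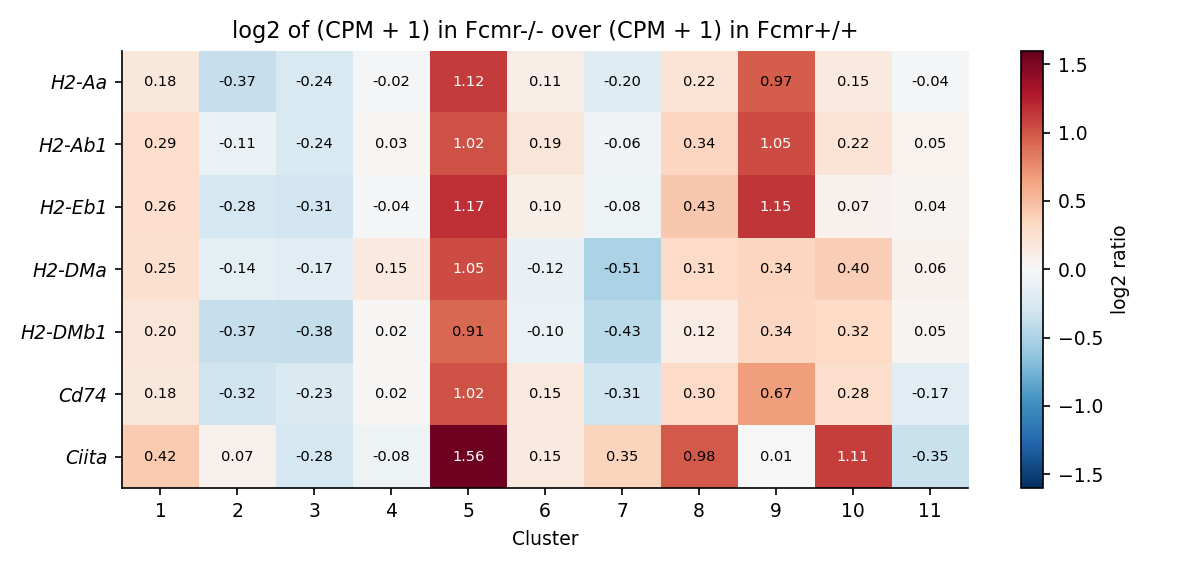
log2 ratio of CPM + 1 in Fcmr-/- over Fcmr+/+ for each member (rows) in each of the 11 clusters (columns), with red for higher and blue for lower in Fcmr-/-. Column 5 is red in all 7 rows, column 3 is blue in all 7 rows, and in column 9 the 3 chains stand at 0.97 to 1.15 while Ciita is at 0.01.

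The 2207 CPM by which the summed members of the Fcmr-/- library exceeded those of Fcmr+/+ were divided into a part within clusters and a part from the share of UMIs in each cluster. The first was 839 CPM (38.0%) and the second 1368 CPM (62.0%). Cycling cluster 5 gave 451 CPM of the part within clusters, cluster 1 gave 328 and cluster 9 gave 257, while cluster 3 took away 224. In the part from shares of UMIs the largest terms were 2351 CPM for cluster 3, -1480 for cluster 1 and 873 for cluster 9. Both parts are therefore sums of terms that cancel in part. This split depended on the clustering, as the part within clusters was 61.2% at resolution 0.4, 30.6% at resolution 1.2 and 96.3% with 20 principal components. Over the 9 clusters with at least 100 cells of each library, the part within clusters was 107% of the remaining difference. That limit leaves out clusters 3 and 9, with 77 and 34 Fcmr+/+ cells and higher shares in Fcmr-/-. Leaving them out takes away their part from shares by rule, so it does not test that part. Genes that differ between the libraries, such as Ly6a, also shaped the clusters, so the second part is not a measure apart from them.

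Different clusters held most of the class II RNA in the 2 libraries. Cluster 1 held 55.5% of the members' UMIs in Fcmr+/+ and 22.1% in Fcmr-/-. Cluster 3 held 3.06% and 32.0%, and cluster 9 held 0.570% and 16.2%. Among the 10% of thinned cells with the most class II UMIs, cluster 1 made up 70.7% in Fcmr+/+ and 38.2% in Fcmr-/-, and cluster 3 made up 4.09% and 33.8%. The class II-high cells of Fcmr+/+ were therefore mostly of cluster 1, and those of Fcmr-/- came largely from clusters 1 and 3. Cluster 3 is led by Ly6a, which had a log2 ratio of 3.44 between the libraries, so its size is not a measure apart from that gene.

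Cd209a is also on the dendritic cell list, and dendritic cells are rich in class II. Cells with at least 2 UMIs of that list were 417 (6.56%) in Fcmr+/+ and 573 (7.16%) in Fcmr-/-, and they held 19.7% and 17.8% of the members' UMIs. Their summed members had 10200 and 11319 CPM. Without them the sums were 4364 and 6597 CPM, and the median log2 ratio of the members was 0.61.

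The members varied together from cell to cell, most tightly the classical chains. In thinned cells the Spearman correlation between pairs of H2-Aa, H2-Ab1, H2-Eb1 and Cd74 was 0.75 to 0.82 over the 6352 Fcmr+/+ cells and 0.81 to 0.88 over the 7999 Fcmr-/- cells, which share library and depth. Each H2-DM gene followed these chains at 0.39 to 0.43 in Fcmr+/+ and 0.46 to 0.49 in Fcmr-/-. H2-DMa and H2-DMb1, which act as a pair, correlated at 0.33 and 0.39 with each other, with fewer UMIs per cell than the classical chains.

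The H2-DM genes also varied less across clusters than the chains they serve. From the lowest cluster to the highest, H2-Aa differed 18.0-fold in Fcmr+/+ and 21.0-fold in Fcmr-/-, and Cd74 15.3-fold and 19.5-fold. H2-DMa differed 7.50-fold and 8.04-fold, and H2-DMb1 6.12-fold and 6.02-fold. For each 100 UMIs of Cd74 in Fcmr+/+, H2-DMa had 3.62 UMIs in cluster 10 and 12.8 in cluster 7, and H2-DMb1 had 3.21 in cluster 10 and 11.2 in cluster 11. In Fcmr-/- the ratios for H2-DMa ran from 3.94 in cluster 10 to 11.5 in cluster 4. The lowest for H2-DMb1 was 3.12 in cluster 2, whose class II sum was also low, so the ratio did not follow the sum in every cluster. H2-Aa per 100 Cd74 UMIs stayed between 33.1 and 45.7 across clusters in Fcmr+/+ and between 32.6 and 45.7 in Fcmr-/-.

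Ciita was found mainly in cells that also had much class II RNA. Thinned cells with a Ciita UMI had a mean of 162 UMIs of the 4 classical genes in Fcmr+/+ (83 cells) and 105 in Fcmr-/- (202 cells), against 26.1 and 33.5 in cells without one. When the Fcmr+/+ cells were ordered by class II UMIs and divided into 5 equal parts, Ciita was seen in 0, 0, 0.0787, 0.630 and 5.82% of cells. The first 2 of these are 0 of 1270 cells each, which allows up to 0.290% of cells with a UMI at this depth and sets no limit on cells that express the gene. In Fcmr-/- the shares were 0.188, 0.250, 1.00, 3.19 and 8%. Rank correlations with single chains were low, at 0.15 to 0.18 in Fcmr+/+ and 0.13 to 0.18 in Fcmr-/-, and with so few UMIs they are not read further.

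By cluster, Ciita followed the order of its targets more closely. Its highest level was 9.45 CPM (14 UMIs) in cluster 3 of Fcmr+/+ and 12.1 CPM (138 UMIs) in cluster 1 of Fcmr-/-. The lowest was cluster 11, with 3 UMIs in Fcmr+/+ and 0 UMIs in Fcmr-/-, where a count of 0 allows up to 0.977 CPM. Over the 22 pairs of cluster and library, the Spearman correlation of Ciita with the 6 other members summed was 0.91. It was 0.70 for the MHC class I genes H2-K1, H2-D1 and B2m, summed, against the same 6 members. These points share 2 libraries, and clusters have different depths.

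**Figure D5:**
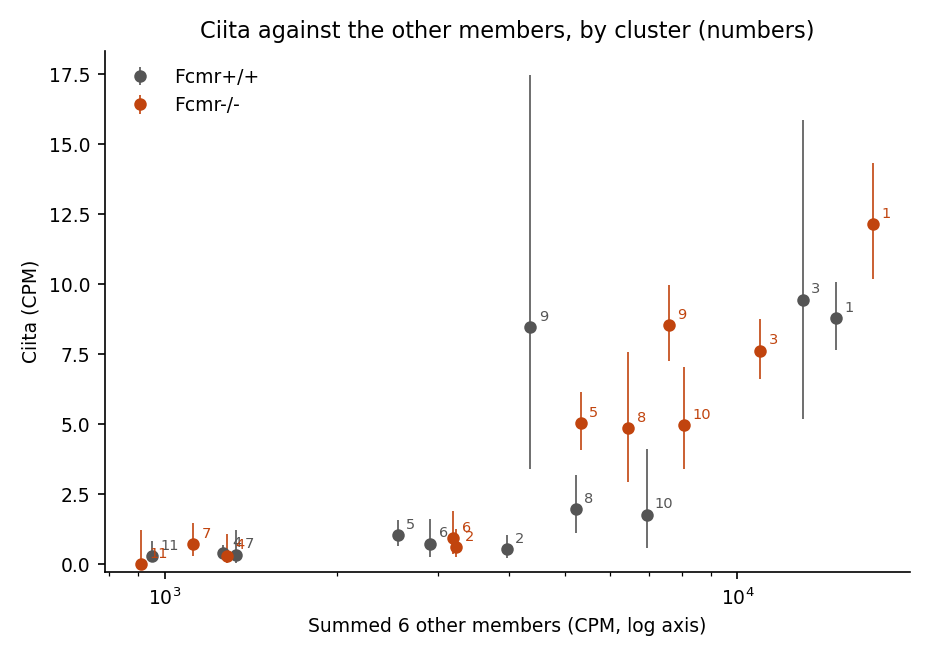
Ciita CPM (vertical axis) with its exact 95% Poisson interval against the summed CPM of the 6 other members (horizontal axis, log) in each cluster (numbers) of Fcmr+/+ (grey) and Fcmr-/- (orange). Ciita lies at or below 1.04 CPM in every cluster with a sum of 3955 CPM or less, and reaches 12.1 CPM in cluster 1 of Fcmr-/-.

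The factors to which Ciita docks had ratios nearer to 1. Of the 7 promoter factors (the RFX subunits Rfx5, Rfxap and Rfxank, the NF-Y subunits Nfya, Nfyb and Nfyc, and Creb1), 6 had at least 5 CPM, none was at a log2 ratio of 0.5 in either direction, and their median was 0.09. Rfxank had the highest ratio, with 6.85 and 8.91 CPM. The 9 genes of class II processing and turnover had a median of -0.09, and none passed 0.5. Among them, cathepsin S (Ctss), which trims Cd74, had 2687 CPM in Fcmr+/+ and 3266 CPM in Fcmr-/-, a log2 ratio of 0.28, and March1, a ligase that removes class II from the surface, had 21.7 CPM in both. Over all 8701 genes with at least 5 CPM the median was 0.00, and 3.16% were at 0.5 or more. The share at -0.5 or less was not counted. That neither list had a gene past 0.5 therefore does not set them apart from other genes.

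Genes known to act between interferon-γ and Ciita were uneven. Socs1, a feedback inhibitor of interferon signaling, had 8.64 CPM in Fcmr+/+ and a log2 ratio of 0.82. Il10, a cytokine known to restrain class II in macrophages, was lower over all cells, with 116 and 49.6 CPM. By cluster it was higher in Fcmr-/- in clusters 3 (17.5 and 47.3 CPM), 6 (51.2 and 60.1), 9 (21.8 and 36.0) and 10 (31.8 and 55.0). In the other clusters it was lower, and its part in the class II values was not tested. Both chains of the interferon-γ receptor differed little, with log2 ratios of -0.24 for Ifngr1 and 0.05 for Ifngr2.

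Other interferon-responsive genes gave the setting for these values. Of the 11 genes of the interferon-γ list, 8 had 5 CPM in either library, but Iigp1, Gbp4, Gbp5 and Gbp8 had it only in Fcmr-/-, which partly fixes their direction. Of those at 5 CPM in both, Cxcl9 had 14.5 and 186 CPM and Gbp2 had 21.4 and 139 CPM. Of the 10 genes of the type I interferon list, 6 were past 0.5, where 3.16% of 8701 genes were, and the median was 0.51. Among these 6, Ifi44 had 5 CPM only in Fcmr-/- (1.59 and 5.58 CPM), which partly fixes its direction too. The MHC class I list had a median of 0.76, with 7 of 9 past 0.5. Of that list, H2-K1, H2-D1 and B2m were summed by cluster, and their sum was higher in Fcmr-/- in 10 of 11 clusters. Of the remaining class II genes, H2-Oa, H2-Ob and H2-Eb2 were below 5 CPM in both libraries, and H2-DMb2 was concentrated in cluster 1, with 24.0 CPM in Fcmr+/+ and 32.4 CPM in Fcmr-/-.

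Among 6694 genes compared across thinned cells, the 10 most like the classical chains outside the class II list were Cd52, Ly6e, Ccr2, Ifitm3, Tgfbi, Plbd1, Plac8, Ly6a, Srgn and Ms4a4c. Their Spearman correlations with the summed chains, averaged over both libraries, were 0.51 for Cd52 and 0.33 to 0.42 for the others. Ccr2, the chemokine receptor by which monocytes enter tissue, had 0.48 in Fcmr+/+ and 0.36 in Fcmr-/-, and Plac8, also a monocyte marker, had 0.39 and 0.34. Ccr2 itself had 131 CPM in Fcmr+/+ and 135 CPM in Fcmr-/-. The monocyte list as a whole had a median log2 ratio of 0.66, with 4 of the 6 genes at 5 CPM past 0.5, where 3.16% of 8701 genes were. Among these 4, Ly6i had 5 CPM only in Fcmr-/- (1.35 and 9.29 CPM), which partly fixes its direction. Ccr2 and Vcan were not past 0.5, with log2 ratios of 0.04 and 0.22. The part of the monocyte markers in the class II difference was not tested.

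At the other end, the 10 genes most opposed to class II were Ctsd, Igf1, Ftl1, Ctsb, Pmp22, Gpnmb, Cd36, Serpinb6a, Pf4 and Cd63. The lysosomal protease gene Ctsd had the lowest correlation, -0.46 in Fcmr+/+ and -0.44 in Fcmr-/-, and the growth factor gene Igf1 had -0.42 and -0.41. Other genes of the processing list went the other way, as Ifi30, a reductase of endosomes, had 0.27 and 0.32, and Ctss had 0.06 and 0.17. Of the 30 most similar genes in each library, 13 were in both lists, which is 43.3% of each. The correlation with class II was higher in Fcmr-/- for Gbp2 (0.10 and 0.28) and H2-K1 (0.22 and 0.37), and these differences were not tested.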

How the data were processed

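The libraries (10x Chromium) were 1 per genotype. The deposited values were UMI counts that the authors made with Cell Ranger on GRCm38 (mm10) and did not normalize. The submitters' processing notes also name Seurat 2.1.0. Here, cells with 200 to 7000 genes and at most 30% mitochondrial UMIs were kept, as in the study's methods. The doublet caller scrublet (scanpy 1.11.5) marked 0 cells in each library and so did not work; an alternative left out the 5% of cells with the highest scores. Counts were summed per library and cluster and given as CPM, with ratios on the scale of log2(CPM + 1). Clustering used Seurat 5.3.0 in R 4.3.3 (10 principal components, resolution 0.8), without class II genes. Cells were thinned to 5000 UMIs with a fixed seed, and no cell kept was shallower. Python 3.11.15, numpy 2.4.6 and scipy 1.17.1 gave exact Poisson and Clopper-Pearson intervals. The arithmetic was checked on simulated data.

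The text names all members, genes of the class II, promoter factor, processing, interferon, class I, macrophage, monocyte, dendritic cell, T and NK cell, B cell, neutrophil and melanoma lists, cluster-leading genes, and the 10 genes most and least correlated with the classical chains. The members and lists were chosen with earlier results of these data known. A gene was counted at a log2 ratio of at least 0.5, given 5 CPM in either group. No test was made, as each genotype had 1 library.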

Additional observations from a re-analysis of the deposited data

Results flagged for a closer look

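The direction of the genotype difference was opposite in different clusters: every member was higher in Fcmr-/- in clusters 1, 5, 8, 9 and 10, with log2 ratios of the summed members of 0.21, 1.06, 0.31, 0.80 and 0.22, and every member was lower in cluster 3, at -0.25. For Ciita the direction was unsure in 2 of these clusters. In cluster 9 its log2 ratio was 0.01, on 7 Fcmr+/+ UMIs. In cluster 3 it had 14 Fcmr+/+ UMIs, with an interval (5.17 to 15.9 CPM) that holds the Fcmr-/- level of 7.62 CPM. The difference between clusters was not tested, and the share of all genes higher or lower was not counted by cluster. In cluster 8 the sum was lower in Fcmr-/- among cells with 5000 to 10000 UMIs, at a log2 ratio of -0.19. Cluster 3 held 77 Fcmr+/+ cells and cluster 9 held 34, so their ratios rest on few cells of that library.

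The cells that the filters removed, 40 in Fcmr+/+ and 18 in Fcmr-/-, also held class II RNA, with 2240 and 3198 CPM of Cd74, close to the levels of the cells kept.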

How the results depend on the processing

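No paired analysis was possible because each genotype had 1 library with no replicate number. The median log2 ratio of the members, 0.54, was 0.36 as the mean of each cell's own CPM, 0.35 in cells thinned to 5000 UMIs, 0.44 with at most 5000 genes per cell, and 0.61 without cells with 2 or more dendritic cell UMIs, with or without Batf3 counted. In windows of depth, added after the data were seen, it was -0.19, 0.20 and 0.93 from the shallowest to the deepest. In the shallowest, H2-Aa had -0.26, H2-Ab1 -0.19, H2-Eb1 -0.18, H2-DMa -0.079, H2-DMb1 -0.19 and Cd74 -0.21. The other alternatives left the median between 0.53 and 0.54. The sum was higher in Fcmr-/- in 5 of 6 clusters at resolution 0.4, in 9 of 16 at resolution 1.2, in 5 of 10 with the interferon lists left out of the clustering too, and in 6 to 8 under the other alternatives. The part within clusters, 38.0%, was 61.2% at resolution 0.4, 30.6% at resolution 1.2, 96.3% with 20 principal components, 31.4% without the interferon lists, 29.6% without dendritic cell-list cells and 27.2% in thinned cells. The share of class II UMIs in the top 10% of cells was 61.2% in Fcmr+/+ and 47.4% in Fcmr-/- without dendritic cell-list cells, and 47.6% in Fcmr-/- at 2500 UMIs. The median rank correlation of member pairs, 0.40 and 0.47, was 0.36 and 0.38 at 2500 UMIs and 0.45 and 0.58 without thinning. The causes were not tested. Ciita, at 0.92, was 0.31 with a pseudocount of 10 CPM and 1.15 with 0.1 CPM, and its 302 and 667 UMIs limit its precision.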
